A study of Homo sapiens with 2 samples.

Results

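Interleukin 1 family genes, 10 in number, were followed in BEAS-2B cells, an immortalised human bronchial epithelial line. They and the pathway lists used below were chosen by name, with earlier results of these data known. The set holds the ligands IL1A, IL1B, IL18, IL33 and IL36G, the antagonist IL1RN, and the receptor chains IL1R1, IL1R2, IL1RAP and IL1RL1. All 10 symbols matched 1 gene each among the 58051 annotated genes of the count tables. The TRPV3-OE group is BEAS-2B cells made to overexpress TRPV3, a calcium-permeable cation channel, taken between passage 4 and 8. The parental group is BEAS-2B cells labelled wild type, taken between passage 20 and 30. Both were grown in LHC-9 medium on collagen and fibronectin, harvested at confluence, and each group has 1 library. How the overexpressing line was made, and whether it is 1 clone, is not given in the sources used here. Passage range and group moved together, so their parts in any difference cannot be told apart.

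Interleukin 1 alpha and beta are alarm cytokines that epithelial and myeloid cells release on damage or infection. Both bind the receptor chain IL1R1, which then recruits the accessory chain IL1RAP and starts NF-kappaB signalling through MYD88 and the IRAK kinases. The antagonist encoded by IL1RN occupies IL1R1 without signalling, and IL1R2 is a decoy that binds ligand but carries no signalling domain. IL-33 signals through IL1RL1 (also called ST2) with the same accessory chain, IL-36 gamma through IL1RL2 with it, and IL-18 through a receptor pair of its own. Several of these cytokines are made as precursors that proteases cut, caspase 1 being the one known for IL-1 beta and IL-18.

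Total counts were 17477953 in the TRPV3-OE library and 17450658 in the parental library, so after scaling 1 count was worth 0.0562 CPM (counts per 1000000 counts) in TRPV3-OE cells and 0.0584 CPM in parental cells. TRPV3 had 54077 counts in the TRPV3-OE library, against 26 in the parental library, which matches the label. All 9 airway epithelial markers were present in both libraries, with summed levels of 8138 CPM in TRPV3-OE cells and 9020 CPM in parental cells. The lists for lymphocytes and mast cells had 0 counts throughout, and the macrophage and monocyte list summed to 0.225 CPM in TRPV3-OE cells and 0.350 CPM in parental cells, with PTPRC and LYZ at 0. Fibroblast markers summed to 0.393 CPM in TRPV3-OE cells and 0.467 CPM in parental cells, and endothelial markers to 1.29 CPM in TRPV3-OE cells and 1.05 CPM in parental cells, where PECAM1 had 23 counts in TRPV3-OE cells and 14 in parental cells. Since each group is a single library, differences could not be set against replicates, and the text gives no p-values. Intervals are exact, at 95%, and hold counting error alone, not the spread between cultures. PCR copies, where counted as separate molecules, would make them too narrow. In bulk RNA, fewer cells making a transcript and less of it per cell cannot be told apart.

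Both interleukin 1 agonist genes were far lower in TRPV3-OE cells, the accessory receptor gene IL1RAP was lower to a smaller extent, and IL18 and IL1R1 stayed within 2-fold. Of the 10 genes, 5 reached the minimum of 100 counts summed over both libraries, here called measured. Among these 5, IL1A, IL1B and IL1RAP were at least 2-fold lower in TRPV3-OE with an interval wholly below 1, and 0 were at least 2-fold higher. By the same rule 5.35% of all 11466 measured genes were lower and 5.31% were higher. At a limit of 4-fold, 2 of the 5 were lower, IL1A and IL1B, beside 1.39% of all measured genes. The 5 measured genes had a median log2 ratio (TRPV3-OE over parental) of −1.56, beside −0.03 over all measured genes, and the other 5 genes are given by their counts.

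**Figure D1:**
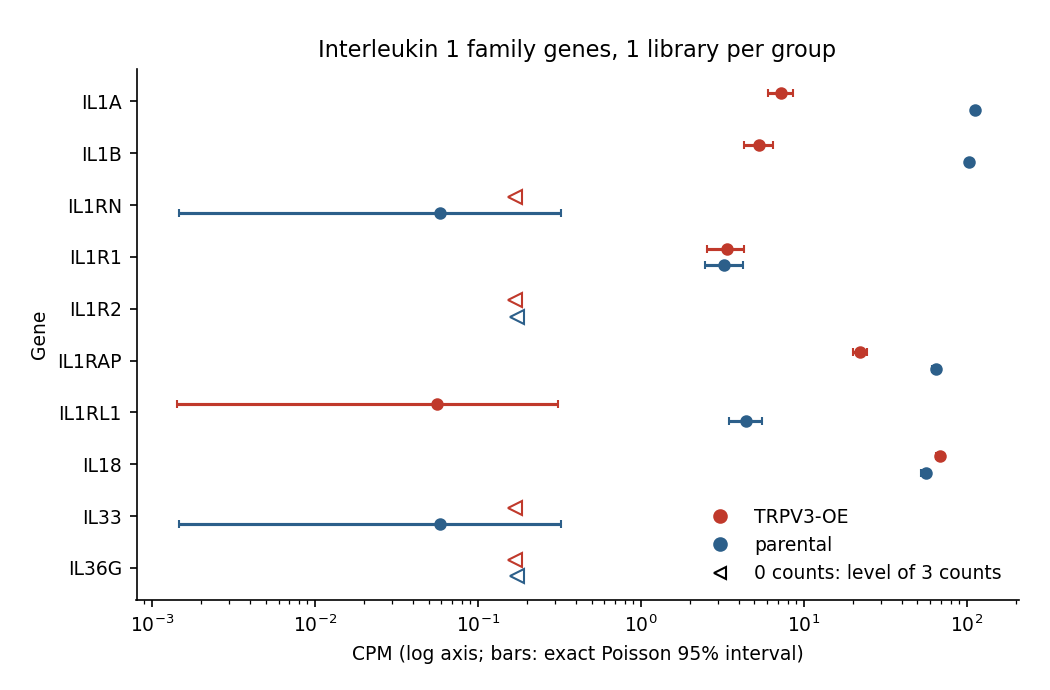
Levels of the 10 genes in CPM on a log axis, in the TRPV3-OE library (red) and the parental library (blue), with exact Poisson 95% intervals; open triangles mark the level of 3 counts where a library had 0 counts. IL1A and IL1B lie at 7.24 and 5.33 CPM in TRPV3-OE cells and above 100 CPM in parental cells, while the points of IL1R1 overlap.

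IL1A encodes interleukin 1 alpha, a cytokine active also as its precursor and known as an alarmin of damaged epithelium. The gene (ENSG00000115008) lies on chromosome 2 from 112773915 to 112784590, minus strand, in GRCh38. It had 129 counts in the TRPV3-OE library, against 1938 in the parental library. These are 7.24 CPM (6.05 to 8.61) in TRPV3-OE cells and 113 CPM (108 to 118) in parental cells. The level was 15.6-fold lower in TRPV3-OE (13.1 to 18.8), a log2 ratio of −3.97 (−4.23 to −3.71). Of all measured genes, 0.358% had a lower log2 ratio.

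IL1B encodes interleukin 1 beta, the secreted agonist that needs proteolytic cutting before it binds its receptor. The gene (ENSG00000125538; chromosome 2, 112829751 to 112836903, minus strand) lies 45.2 kb from IL1A. It had 95 counts in the TRPV3-OE library and 1784 in the parental library. Its level was 5.33 CPM (4.32 to 6.52) in TRPV3-OE cells and 104 CPM (99.4 to 109) in parental cells, which is 19.5-fold lower in TRPV3-OE (15.9 to 24.3; log2 ratio −4.29, −4.60 to −3.99). The intervals of the IL1A and IL1B log2 ratios overlap. The protein-coding genes nearest to IL1B in log2 ratio, among 8744 with at least 500 summed counts, were SYDE1 (−4.22), IGFBP3 (−4.21) and then IL1A itself, a likeness over 2 libraries only.

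IL1A and IL1B stood in similar proportion in both libraries. IL1A made up 57.6% of the counts of the pair in TRPV3-OE cells (129 of 224 counts, Clopper-Pearson 95% interval 50.8 to 64.1) and 52.1% in parental cells (50.4 to 53.7), and these intervals overlap. Per length, in TPM (transcripts per 1000000, from the counts and the files' exonic lengths), IL1A stood at 12.8 TPM in TRPV3-OE cells and 191 TPM in parental cells. IL1B stood at 6.48 TPM in TRPV3-OE cells and 121 TPM in parental cells.

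IL18 encodes interleukin 18, which many epithelia hold as a ready precursor. The gene (ENSG00000150782; chromosome 11, 112143251 to 112164117, minus strand) had 1227 counts in the TRPV3-OE library and 960 in the parental library, or 68.9 CPM (65.1 to 72.9) in TRPV3-OE cells and 56.1 CPM (52.6 to 59.7) in parental cells. Its log2 ratio was 0.30 (0.17 to 0.42), a 1.23-fold higher level that is beyond counting error and below the 2-fold limit. The order of the ligands per length differed between libraries. In TRPV3-OE cells IL18 stood at 98.6 TPM, above IL1A and IL1B, whereas in parental cells it stood at 76.7 TPM, below both. As a share of the counts of the 3 genes, IL18 took 84.6% in TRPV3-OE cells (82.6 to 86.4) and 20.5% in parental cells (19.4 to 21.7).

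**Figure D2:**
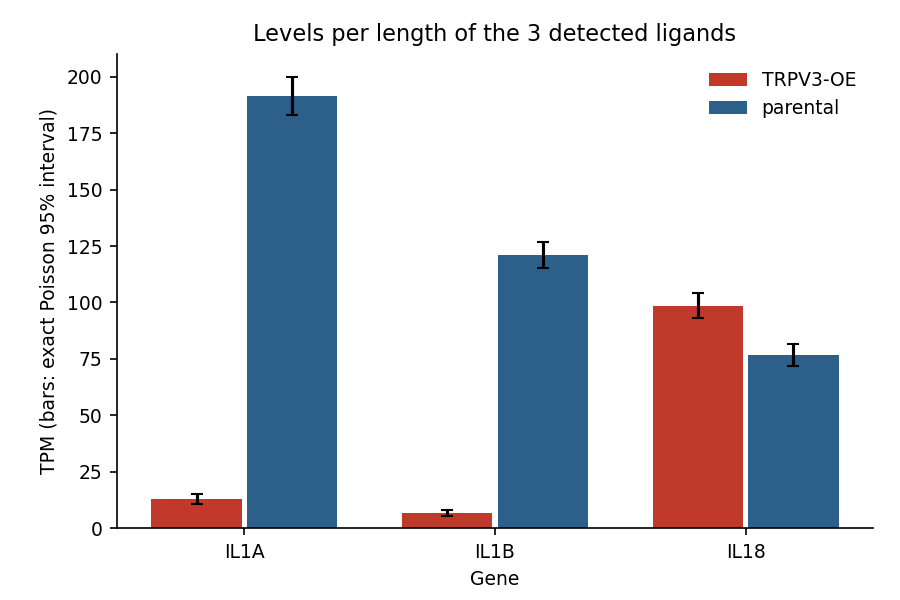
TPM of IL1A, IL1B and IL18 in the TRPV3-OE library (red, left bar) and the parental library (blue, right bar), with exact Poisson 95% intervals. IL1A and IL1B are the tall bars of the parental library at 191 and 121 TPM, and IL18 at 98.6 TPM is the tallest bar of the TRPV3-OE library.

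The remaining ligand genes were not detectable at this depth. IL33, an epithelial alarmin gene on chromosome 9, had 0 counts in TRPV3-OE cells and 1 count in parental cells. IL36G, which encodes IL-36 gamma, an epithelial cytokine gene of the same chromosome 2 cluster as IL1B, had 0 counts in both libraries. IL1RN, the antagonist gene, had 0 counts in TRPV3-OE cells and 1 count in parental cells. A count of 0 allows a level of up to 3 counts, which is 0.168 CPM in the TRPV3-OE library and 0.175 CPM in the parental library. IL1RN thus stood at up to 3 counts beside 224 counts of IL1A and IL1B together in TRPV3-OE cells. In parental cells its 1 count stood beside 3722, a share of 0.0269% (0.00068 to 0.150).

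Promoter windows are shown for the 3 genes that were at least 2-fold lower, IL1A, IL1B and IL1RAP. RefSeq windows of 300 bases (250 before and 50 from the start site, GRCh38.p14) were matched for 9 of the 10 genes, all but IL18. Capitals mark matches on either strand to the AP-1 motif TGANTCA, the TATA box TATAAA and the NF-kappaB motif.
IL1A, chr2:112784444-112784743, minus strand: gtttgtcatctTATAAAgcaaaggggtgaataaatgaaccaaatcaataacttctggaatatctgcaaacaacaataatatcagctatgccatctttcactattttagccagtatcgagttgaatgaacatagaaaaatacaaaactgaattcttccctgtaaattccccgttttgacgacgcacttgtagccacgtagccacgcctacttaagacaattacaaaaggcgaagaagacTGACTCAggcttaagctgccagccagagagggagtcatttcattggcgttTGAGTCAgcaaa
IL1B, chr2:112836730-112837029, minus strand: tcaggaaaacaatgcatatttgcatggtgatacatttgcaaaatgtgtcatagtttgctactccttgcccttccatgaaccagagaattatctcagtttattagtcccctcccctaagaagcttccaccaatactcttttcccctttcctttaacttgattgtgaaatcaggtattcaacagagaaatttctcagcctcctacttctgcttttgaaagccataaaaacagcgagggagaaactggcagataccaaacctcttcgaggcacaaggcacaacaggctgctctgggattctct
IL1RAP, chr3:190513835-190514134, plus strand: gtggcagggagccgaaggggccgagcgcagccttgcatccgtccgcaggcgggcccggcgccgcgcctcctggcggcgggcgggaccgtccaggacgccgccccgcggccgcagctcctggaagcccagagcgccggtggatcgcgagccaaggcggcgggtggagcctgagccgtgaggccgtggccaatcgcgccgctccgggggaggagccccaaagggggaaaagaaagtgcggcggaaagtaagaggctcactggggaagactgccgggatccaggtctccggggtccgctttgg
The IL1A window held 2 AP-1 matches, at −12 and 39 from the start site, and 1 TATA match at −239. The IL1B and IL1RAP windows held 0 matches to any of the 3 motifs. Of 35116 RefSeq windows of this length, 7.71% held an AP-1 match, 11.5% a TATA match and 11.3% an NF-kappaB match. The windows also differed in base composition, with 39.7% G and C in IL1A, 42.3% in IL1B and 73.7% in IL1RAP. IL1A has a second RefSeq start 93 bases downstream, whose window overlaps the one shown and holds the same AP-1 letters. A match is a description of letters, and its absence from these windows says nothing of sites elsewhere.

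Among the receptor chains, the signalling chain IL1R1 was low in both libraries, while the accessory chain was more abundant and lower in TRPV3-OE. IL1R1 (ENSG00000115594; chromosome 2, 102064544 to 102179874) had 60 counts in TRPV3-OE cells and 56 in parental cells, or 3.37 CPM (2.57 to 4.34) in TRPV3-OE cells and 3.27 CPM (2.47 to 4.25) in parental cells. The log2 ratio of 0.04 had an interval of −0.51 to 0.60, so a difference within that range was not detectable at this depth. IL1RAP (ENSG00000196083; chromosome 3, 190514051 to 190659750, plus strand) had 394 counts in TRPV3-OE cells and 1117 in parental cells. Its 22.1 CPM (20.0 to 24.4) in TRPV3-OE cells, against 65.2 CPM (61.4 to 69.2) in parental cells, is a 2.95-fold lower level (2.63 to 3.31; log2 ratio −1.56, −1.73 to −1.39). Of the exonic length of IL1RAP, 4.63% is shared with another annotated gene of the same strand, and reads there were left out of the counts.

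Per length, IL1RAP stood at 7.20 TPM and IL1R1 at 1.79 TPM in TRPV3-OE cells, a ratio of 4.02. In parental cells IL1RAP stood at 20.3 TPM and IL1R1 at 1.66 TPM, a ratio of 12.2. The accessory chain was the more abundant of the pair in both libraries, by a smaller margin in TRPV3-OE. The decoy receptor gene IL1R2 had 0 counts in both libraries, a floor of 3 counts beside the 60 of IL1R1 in TRPV3-OE cells and the 56 in parental cells.

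IL1RL1, the IL-33 receptor gene (ENSG00000115602; chromosome 2, 102311502 to 102352037), had 1 count in TRPV3-OE cells and 76 in parental cells. At 77 summed counts it lay below the measuring minimum of 100 and outside the counts given above. Its level was 0.0562 CPM (0.00142 to 0.313) in TRPV3-OE cells and 4.44 CPM (3.50 to 5.55) in parental cells, a log2 ratio of −6.30 whose interval ran from −11.63 to −3.78. With a minimum of 20 counts IL1RL1 would join the genes called lower, 4 in all, beside 6.76% of 13931 genes. The gene shares 95 bases, 1.65% of its exonic length, with IL18R1 on the same strand. The mast cell markers TPSAB1, CPA3, KIT and MS4A2, a cell type known for this receptor, were at 0 in both libraries.

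**Figure D3:**
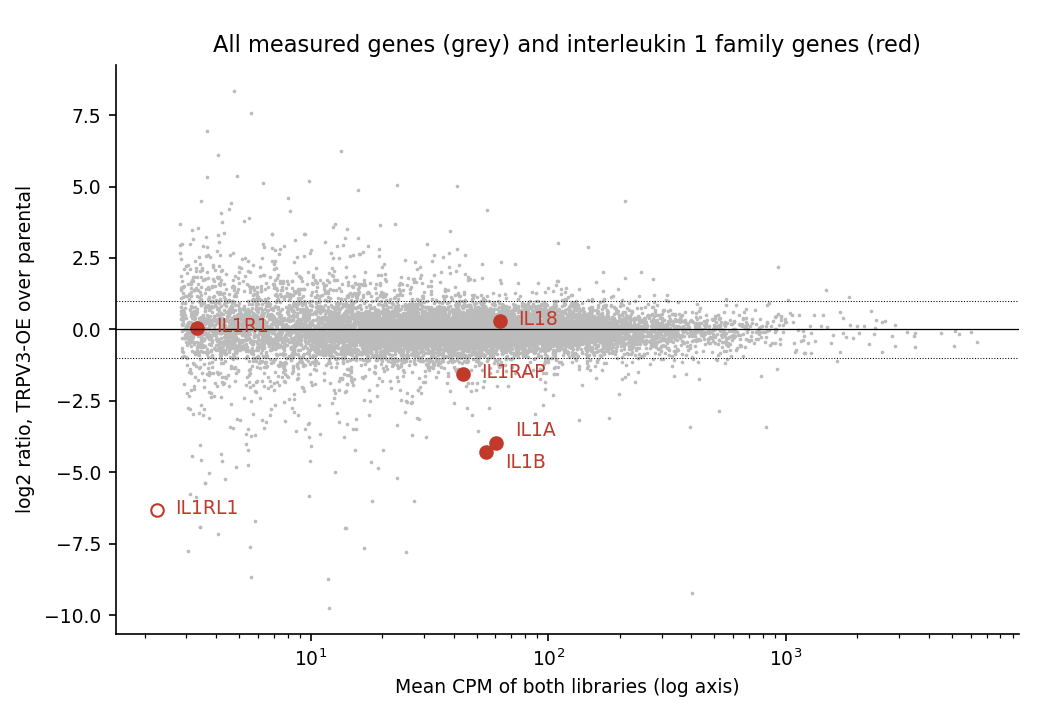
Log2 ratio of TRPV3-OE over parental against mean CPM (log axis) for all measured genes except TRPV3 (grey), with the detected interleukin 1 family genes in red; IL1RL1 is open because it lay below the minimum, and dotted lines mark 2-fold. IL1A and IL1B lie near −4 at about the same mean level as IL18, which lies at 0.30.

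Of 12 other family genes 2 were measured, and neither passed 2-fold. IL18BP, which encodes a secreted protein that binds and neutralises IL-18, had 169 counts in TRPV3-OE cells and 98 in parental cells (log2 ratio 0.73, 0.36 to 1.10). SIGIRR, an inhibitory receptor of the family, had 425 counts in TRPV3-OE cells and 324 in parental cells (0.34, 0.12 to 0.55). SIGIRR is on chromosome 11 among genes with low ratios (−0.71, the median of its 50 nearest measured genes), and subtracting that value put it at 1.04. Below the minimum, the IL-18 receptor gene IL18R1 had 17 counts in TRPV3-OE cells and 65 in parental cells (−1.99, −2.85 to −1.20). Its partner chain IL18RAP had 0 counts in both libraries. The IL-36 receptor gene IL1RL2 had 6 counts in TRPV3-OE cells and 16 in parental cells, and IL36A, IL36B, IL1F10 and IL1RAPL1 had 0 in both. IL37, IL36RN and IL1RAPL2 had 1, 3 and 0 counts in TRPV3-OE cells and 1, 2 and 1 in parental cells.

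The family genes of chromosome 2 sit in a ligand cluster of 360 kb and a receptor cluster of 461 kb. Of the 9 genes of the ligand cluster, IL1A and IL1B carried nearly all counts, and the other 7 had at most 5 counts each over both libraries. The genes around the ligand cluster did not share its low ratios. Of 14 other measured genes within 1 Mb of it, 0 were at least 2-fold lower and 1 was higher, beside 5.35% and 5.31% of all measured genes. The higher gene was MERTK, which encodes a receptor for dying cells (157 counts in TRPV3-OE cells and 7 in parental cells, log2 ratio 4.43). The 14 genes had a median log2 ratio of −0.15, and CKAP2L, the measured gene next to IL1A, lay at −0.43. The 50 measured genes nearest to IL1A had a median of −0.13, which leaves −3.83 for IL1A and −4.15 for IL1B after subtraction.

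Around the receptor cluster, 1 of 8 other measured genes was lower and 0 were higher, beside 5.35% and 5.31% of all measured genes. The lower gene was the kinase gene MAP4K4 (1953 counts in TRPV3-OE cells and 5545 in parental cells, log2 ratio −1.56), and the 8 genes had a median of 0.12. Inside the receptor cluster IL1R1 lay at 0.04 and IL1RL1 at −6.30 with IL1RL2 between them at −1.47 (−3.11 to −0.04). After subtraction of the 50 nearest genes IL1RAP lay at −1.46 and IL18 at 0.42.

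**Figure D4:**
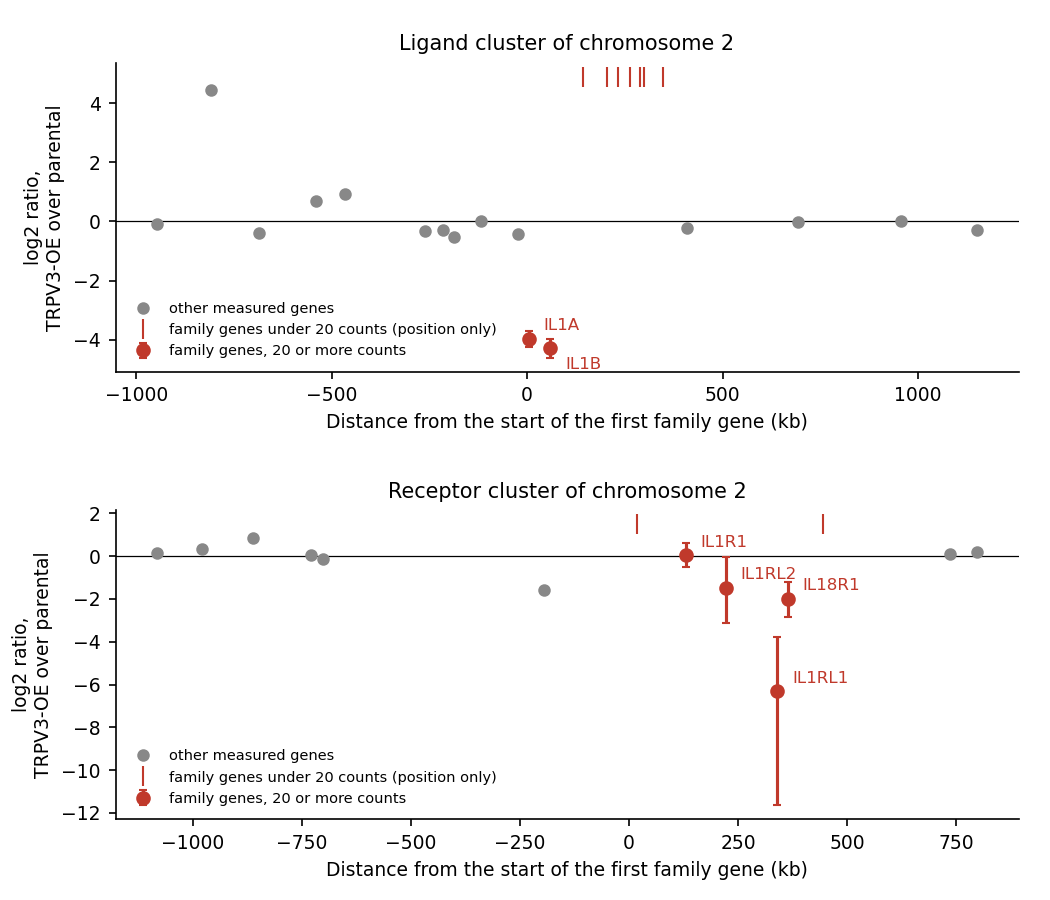
Log2 ratio of TRPV3-OE over parental against distance in kb from the start of the first family gene of each cluster, for measured neighbours (grey) and family genes with at least 20 counts (red, 95% intervals); ticks show the place of family genes with fewer counts. IL1A and IL1B lie near −4 among neighbours of which all but MERTK lie between −0.51 and 0.94.

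Genes that process or release interleukin 1 were in part lower. Of 22 listed genes 13 were measured, of which 2 passed 2-fold downward and 0 upward (median log2 ratio −0.48). CASP1, the protease that cuts the precursors of IL-1 beta and IL-18, had 233 counts in TRPV3-OE cells and 624 in parental cells (2.78-fold lower; log2 ratio −1.48, −1.70 to −1.26). PYCARD, the adaptor ASC that joins sensors to caspase 1, had 79 counts in TRPV3-OE cells and 186 in parental cells (2.45-fold lower; −1.29, −1.69 to −0.90). PYCARD lies at −0.98 after subtraction of its 50 nearest genes. These 2 genes stand beside the 5.35% of all measured genes that were called lower.

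The other measured genes named from this list lay below 2-fold. CARD16 is a near copy of part of CASP1, so counts of uniquely aligned reads are uncertain for CARD16 and for that part of CASP1. CARD16 had a log2 ratio of −0.96 (−1.51 to −0.42). GSDMD, the pore protein through which IL-1 beta can leave a cell, had 671 counts in TRPV3-OE cells and 1214 in parental cells (−0.91, −1.05 to −0.77). CARD8, a sensor of the inflammasome family, lay at −0.62, and NINJ1, a membrane rupture protein, at 0.70. The sensor gene NLRP3 had 0 counts in TRPV3-OE cells and 42 in parental cells, below the measuring minimum. Against a floor of 3 counts per library it was 14.6-fold lower in TRPV3-OE. The exact interval of its ratio allowed a difference as small as 11.3-fold. NLRP3 is named here after its values were seen. CASP4, the human caspase for intracellular lipopolysaccharide, had 1246 counts in TRPV3-OE cells and 1290 in parental cells (−0.11), and the calpain genes CAPN1 and CAPN2, whose products can cut the IL-1 alpha precursor, lay at −0.16 and −0.23.

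Of the 22 signalling genes downstream of the receptor, 20 were called in neither direction. All 22 listed genes were measured, 2 were at least 2-fold higher and 0 lower, beside 5.31% and 5.35% of all measured genes, with a median of 0.05. The adaptor MYD88 had 464 counts in TRPV3-OE cells and 463 in parental cells (log2 ratio −0.05), and the kinases IRAK1 and IRAK4 lay at 0.13 and −0.04. The higher genes were PELI2 and IRAK3. PELI2, a ubiquitin ligase of the Pellino family that acts on IRAK kinases, had 171 counts in TRPV3-OE cells and 4 in parental cells (41.1-fold; 5.36, 3.98 to 7.25). IRAK3, the family member known as a brake on this pathway, had 143 counts in TRPV3-OE cells and 59 in parental cells (2.33-fold; 1.22, 0.77 to 1.68). The related ligase PELI1 went the other way, with 164 counts in TRPV3-OE cells and 312 in parental cells (−0.98, −1.27 to −0.71). MAP3K3 lay at −0.79, TAB3 at −0.61 (−0.71 being the median of its 50 nearest), and the kinase subunit gene CHUK at 0.65.

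Known target genes of interleukin 1 in epithelium differed gene by gene. Of 30 listed genes 16 were measured, 5 were at least 2-fold lower and 1 was higher, beside 5.35% and 5.31% of all measured genes, with a median of −0.46. The lower genes were CSF3, which encodes granulocyte colony-stimulating factor (10 counts in TRPV3-OE cells and 614 in parental cells), the neutrophil chemokine genes CXCL1, CXCL2 and CXCL3, and TNFAIP3, a feedback inhibitor of NF-kappaB. CXCL1 had 34 counts in TRPV3-OE cells and 439 in parental cells, and TNFAIP3 had 105 in TRPV3-OE cells and 289 in parental cells. CXCL2 (log2 ratio −2.63) and CXCL3 (−3.72) are neighbours of CXCL1 (−3.75) on chromosome 4, and the 50 measured genes nearest to CXCL1 lay at −0.70 in the median. PTGES, the terminal prostaglandin E synthase, was 3.37-fold higher, with 7567 counts in TRPV3-OE cells and 2157 in parental cells. NFKBIA, the classical feedback target of NF-kappaB, had 855 counts in TRPV3-OE cells and 834 in parental cells (log2 ratio −0.02, −0.16 to 0.12). TNFAIP2, just under the 2-fold limit, had 8284 counts in TRPV3-OE cells and 4065 in parental cells (log2 ratio 0.97, 0.92 to 1.03). Subtracting the median of its 50 nearest measured genes put it at 1.76. Under other scalings of the libraries 2 target genes were at least 2-fold higher. SOD2 lay at 0.35 and ICAM1 at −0.60. PTGS2 lay at −0.91 (−1.49 to −0.35), −1.07 after subtraction of its 50 nearest genes, and NFKBIZ at −0.75 (−1.06 to −0.45). The remaining measured target genes were ZC3H12A at −0.33, LIF at 0.08, BIRC3 at 0.14 and C3 at 0.26. Many stimuli other than interleukin 1 act on these genes, and their link to IL1A and IL1B in these cells was not tested.

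**Figure D5:**
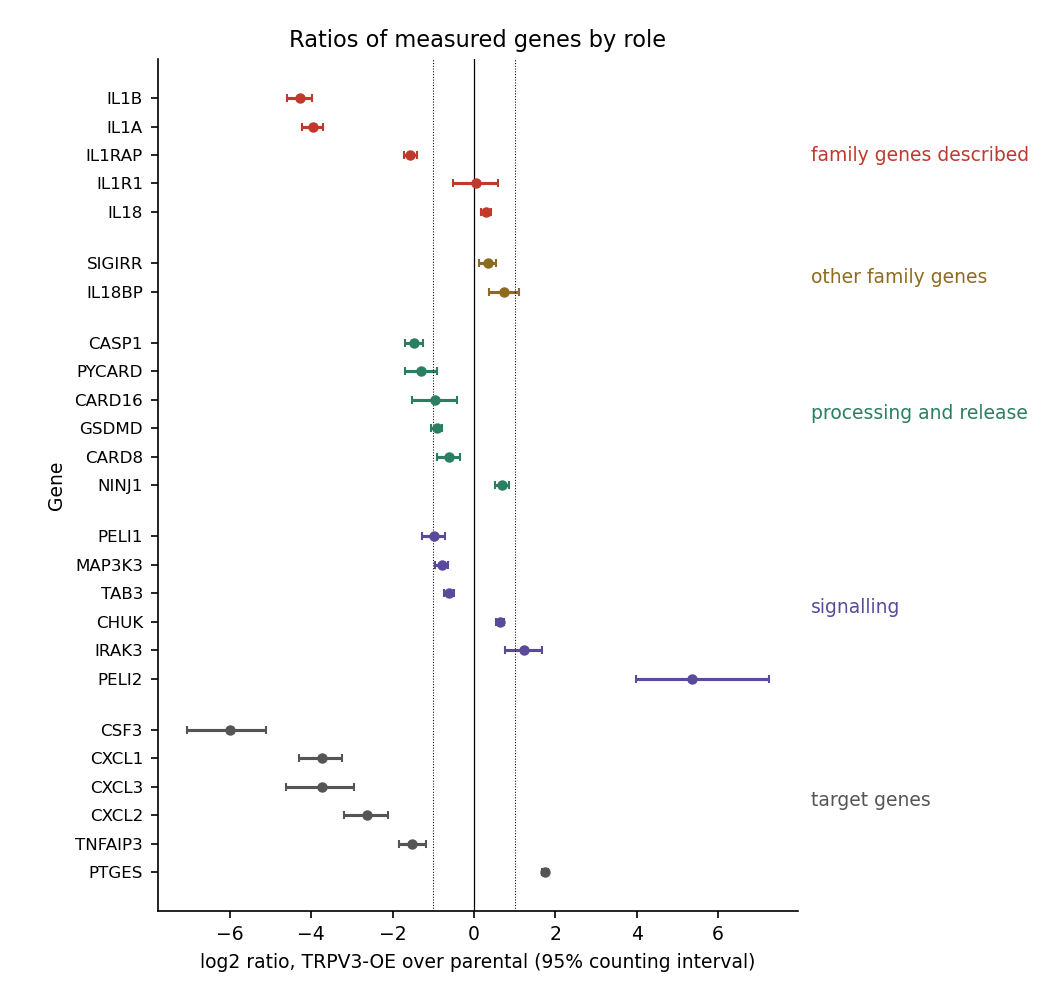
Log2 ratio of TRPV3-OE over parental with 95% counting intervals for the measured family genes and up to 6 named genes of each pathway list; dotted lines mark 2-fold. IL1A, IL1B and the target genes CSF3 and CXCL1 lie at the left, IL1R1 spans 0, and PELI2 lies at the right at 5.36.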

How the data were processed

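RNA from 1 TRPV3-OE and 1 parental BEAS-2B culture was sequenced, and groups follow the genotype labels. Each deposited file holds unnormalised read counts by gene, made by the authors with featureCounts 1.5.0-p3 on strand setting 2, with Ensembl 87 models on GRCh38.p7, per the file headers. Per the submitters' processing notes STAR and DESeq2 were also used, with no version given. As the headers set no option for reads with several alignments or over several genes, these were left out by default. The library kit is not given in the sources used here.

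Symbols came from a gene name table (56948 of 58051 IDs), and 1 listed symbol, SOD2, and biotypes from GENCODE 29. Libraries were scaled with TMM factors (1.02 for TRPV3-OE and 0.981 for parental) from edgeR 4.0.16 in R 4.3.3. No model was fitted. CPM and TPM carry exact Poisson intervals, and log2 ratios exact conditional binomial (Clopper-Pearson) ones. In ratios, 0.5 stood in for a count of 0. Genes with at least 100 summed counts were measured, and called where the ratio passed 2-fold with the interval on that side of 1. Calls and intervals were tested on simulated data with counting error alone, so the test cannot speak to spread between cultures. The 10 genes, the 4 pathway lists and the settings were chosen with earlier results of these data known. The text names the 10 genes, up to 6 measured genes per list with the largest absolute log2 ratio and 3 genes nearest to IL1B. Other genes were added after their values were seen. Alternatives were other scalings (DESeq2 1.42.0 among them), a prior count of 5, other minimums and fold limits, and subtracting the 50 nearest genes' median. Python 3.11.15 with scipy 1.17.1 was used.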

Additional observations from a re-analysis of the deposited data

How the results depend on the processing

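No paired analysis was possible because there is 1 library per group, nor could a replicate be left out. The log2 ratios of IL1A, IL1B, IL1R1, IL1RAP, IL1RL1 and IL18 stayed within their intervals in all 30 recalculations (other scalings, a prior count of 5, subtraction of the 50 nearest genes). For IL1RL1, with 1 count in TRPV3-OE cells, that interval is wide (−11.63 to −3.78). Its log2 ratio went from −6.30 to −3.79 with the prior count of 5, so its size is poorly fixed. Of 100 values of other named genes 92 did so, and 8 moved, all on subtraction of the 50 nearest genes. Among these TAB3, which was not called, changed sign from −0.61 to 0.09, and the cause was not tested. The median log2 ratio over measured genes lay between −0.03 with TMM and 0.03 with upper quartile factors. Another scaling shifts every gene alike by this small amount, so the recalculations with other scalings could hardly leave the intervals. The ratio of IL1RN to IL1A and IL1B kept within its interval without length correction, but this check could hardly fail. In TRPV3-OE cells the ratio is 0 either way, and in parental cells it rests on 1 count. Fewer or more genes qualify by construction under other limits. Genes at least 2-fold higher and lower (609 and 614 of 11466) became 1347 and 1121 of 22863 with a minimum of 1 count. They were 1094 and 942 of 13931 with 20, and 245 and 323 with 500. Among the 11466 measured genes they were 1455 and 1627 at 1.5-fold, and 151 and 159 at 4-fold. The list counts that follow are to be read beside these and were not tested against them. Other family genes had 2 lower with a minimum of 1 or 20, and 1 higher at 1.5-fold or after subtraction. Processing genes had 1 higher and 5 lower at 1.5-fold, 0 lower at 4-fold, and 1 lower with a minimum of 500 or after subtraction. Signalling genes had 0 higher with a minimum of 500, 1 higher at 4-fold and 3 lower at 1.5-fold. Target genes had 2 higher under total counts, DESeq2 size factors, upper quartile factors, 1.5-fold or subtraction, 3 higher with a minimum of 1 or 20 and 0 higher at 4-fold. They had 9 lower with a minimum of 1 or 20, 1 lower with 500 and 8 lower at 1.5-fold. Depth limits IL1R1 most among the measured family genes, since 116 summed counts leave its interval at −0.51 to 0.60.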

Other observations

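Several target genes of interleukin 1 lay below the measuring minimum and are given as values, named after they were seen. The serpin gene SERPINB2 had 1 count in TRPV3-OE cells and 53 in parental cells (log2 ratio −5.78, −11.11 to −3.24). The collagenase gene MMP1 had 0 counts in TRPV3-OE cells and 43 in parental cells, 14.9-fold lower against a floor of 3 counts per library. The exact interval of its ratio allowed a difference as small as 11.6-fold. CCL20, a chemokine gene of epithelium, had 4 counts in TRPV3-OE cells and 39 in parental cells (−3.34, −5.29 to −1.87), and CXCL8 had 26 in TRPV3-OE cells and 54 in parental cells (−1.11, −1.84 to −0.41). The epithelial cytokine gene TSLP went the other way, with 32 counts in TRPV3-OE cells and 9 in parental cells (1.77, 0.67 to 3.03). So did the iron-binding lipocalin gene LCN2, with 68 counts in TRPV3-OE cells and 24 in parental cells (1.45, 0.76 to 2.18). IL6 had 13 counts in TRPV3-OE cells and 11 in parental cells.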
